A study of Arabidopsis thaliana with 16 samples.

Results

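The 58 genes described here encode proteins of the large (60S) subunit of the cytosolic ribosome of Arabidopsis thaliana. They were chosen as a list of locus identifiers covering 31 protein families from RPL3 to RPL37, the stalk protein RPP0 and the RPL24 gene STV1, out of 33323 genes counted in each library. Plant ribosomal proteins are encoded by small families of near-duplicate genes, and a ribosome takes up 1 copy from each family. The large subunit joins amino acids at its catalytic centre and releases the growing chain through an exit tunnel. Its stalks bind and release translation factors and tRNA, and bridges tie it to the small subunit. Pollen tubes are fast-growing single cells that carry sperm to the ovule, and mature pollen is known to store ribosomes and mRNA made before germination.

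RNA came from pollen tubes that had grown out of excised pistils (semi-in vivo growth). The tubes were wild type (WT) or paps1-1, both in the Col-0 background, where paps1-1 is a mutant allele of the gene for the nuclear poly(A) polymerase PAPS1 with reduced function. Each of 8 RNA samples, 4 of each genotype, was split into a library primed with oligo(dT), which starts at poly(A) tails, and a library primed with random hexamers, which does not need a tail. Both passed through removal of ribosomal RNA. The title of the series ties this pairing to an estimate of poly(A)-tail length. The labels state neither the source plants or days of the replicates nor the number of pistils or tubes in a sample. Every p-value below therefore refers to the variation among these libraries, part of which may be technical. Since paps1-1 changes the protein, transcript counts do not check the genotype labels.

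Gene counts per library ranged from 70006 in WT oligo(dT) replicate 3 to 5294715 in paps1-1 random-hexamer replicate 1, so that the limit a count of 0 allows (3 counts) lay between 0.567 and 42.9 CPM (counts of a gene scaled to the total gene counts of its library). The 17 pollen-tube markers were all detected in every random-hexamer library and held from 2.76% to 13.3% of gene counts over all 16. The 8 pistil markers held at most 0.0529%. With random hexamers, 3 to 6 of the 8 were detected per WT library and 4 to 7 per paps1-1 library. With oligo(dT) these numbers were 0 to 1 and 0 to 5. AT1G69180 (CRABS CLAW) was at 0 throughout. The 22 photosynthesis genes held from 0.00571% to 1.39%, highest in paps1-1 replicate 3. Several libraries lacked more of the 58 genes than their depth gives. In WT replicate 3, 22 of the 58 were at 0 with random hexamers, where sampling at that depth from the median shares of the other random-hexamer libraries gives 0.898. With oligo(dT) 54 were at 0, where sampling gives 14.2. WT random-hexamer replicate 4 had 10 genes at 0 where sampling gives 0.0735. Among the other oligo(dT) libraries, WT replicate 1 had 30 at 0 where sampling gives 10.05, WT replicate 2 had 17 (9.53) and paps1-1 replicate 4 had 21 (11.9). Oligo(dT) replicates 1 and 2 of paps1-1 had fewer than sampling gives, at 4 (14.4) and 0 (14.2). The median shares pool both genotypes, and the part of genotype in these numbers was not tested.

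Together, the 58 genes took a small share of the reads, and this share varied several-fold among RNA samples of the same genotype. With random hexamers, the share of gene counts was 0.114%, 0.256%, 0.224% and 0.473% in WT replicates 1 to 4. In paps1-1 it was 0.191%, 0.745%, 0.708% and 0.331%. Replicates 2 and 3 of paps1-1 lay above every WT library, and replicates 1 and 4 lay inside the WT range. The means were 0.494% ± 0.275 (SD, n = 4) in paps1-1 and 0.267% ± 0.150 in WT. With oligo(dT), the same RNA samples gave 0.344%, 1.41%, 1.34% and 0.537% in paps1-1. In WT they gave 0.168%, 0.525%, 0.110% and 0.680%. The order of the paps1-1 samples was the same by both primings. The 2 paps1-1 samples with the highest ribosomal shares also had the lowest shares of pollen-tube markers, 3.68% and 3.33% with random hexamers, against 6.15% to 9.29% in the other 6 random-hexamer libraries. Their photosynthesis genes held 0.0862% and 0.748%, against 0.0302% to 0.258% in the other 6, and their pistil markers 0.0423% and 0.00928%, against 0.00290% to 0.0105%. The part of these in the ribosomal share was not tested. In bulk RNA, fewer cells of a type and less RNA per cell cannot be told apart.

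**Figure D1:**
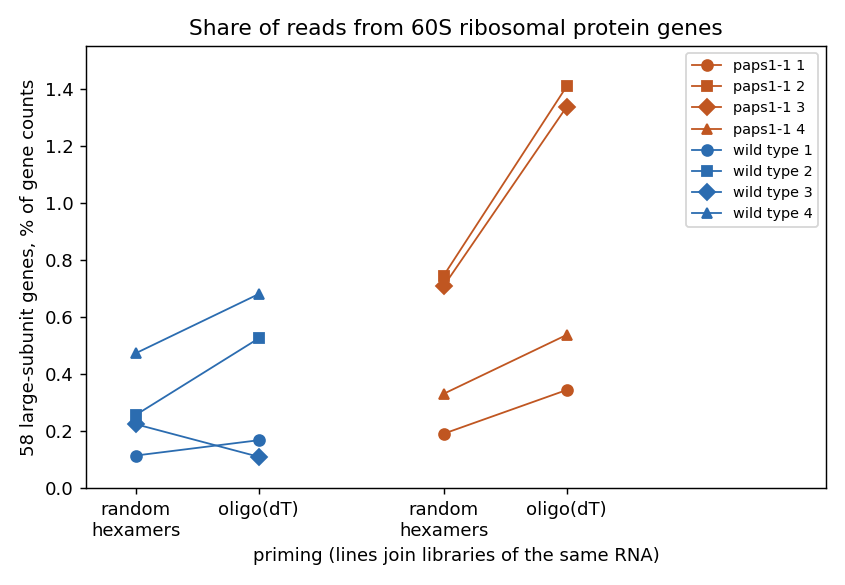
Share of gene counts (y axis, percent) taken by the 58 large-subunit genes in each library, with a line joining the random-hexamer and oligo(dT) libraries of the same RNA. Replicates 2 and 3 of paps1-1 are the highest by both primings, and the line of WT replicate 3 is the only one that slopes down.

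Levels per length were read from the WT random-hexamer libraries, as CPM per kilobase of exon. The median gene stood at 29.1 CPM per kb, and the range ran from 0.223 for AT4G10450, an RPL9 copy, to 261 for SAG24 (AT1G66580), an RPL10 copy. The 10 genes of highest mean took 44.2% of the summed per-kilobase level. After SAG24 at 261 ± 98.1 CPM per kb (SD, n = 4) came AT4G27090 (RPL14) at 109 ± 83.7 and emb2386 (RPL19) at 100.1 ± 96.3. They were followed by AT1G67430 (RPL17) at 95.4, AT3G09630 (RPL4) at 83.7, AT3G09200 (RPP0) at 79.3 and RP1 (RPL3) at 72.0. AT2G47610 (RPL7a) at 67.3, AT5G02870 (RPL4) at 62.0 and ATL5 (RPL5) at 56.99 completed the 10. SAG24 ranked 1, 1, 1 and 3 among the 58 in replicates 1 to 4, while emb2386 ranked 2, 4, 35 and 1. The SDs of neighbours in the order overlapped, those of the first and second genes included, so 4 libraries do not resolve it. Next above AT4G10450 at the bottom came RPL16A (RPL11) at 0.611 and RPL3B at 0.773 CPM per kb.

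**Figure D2:**
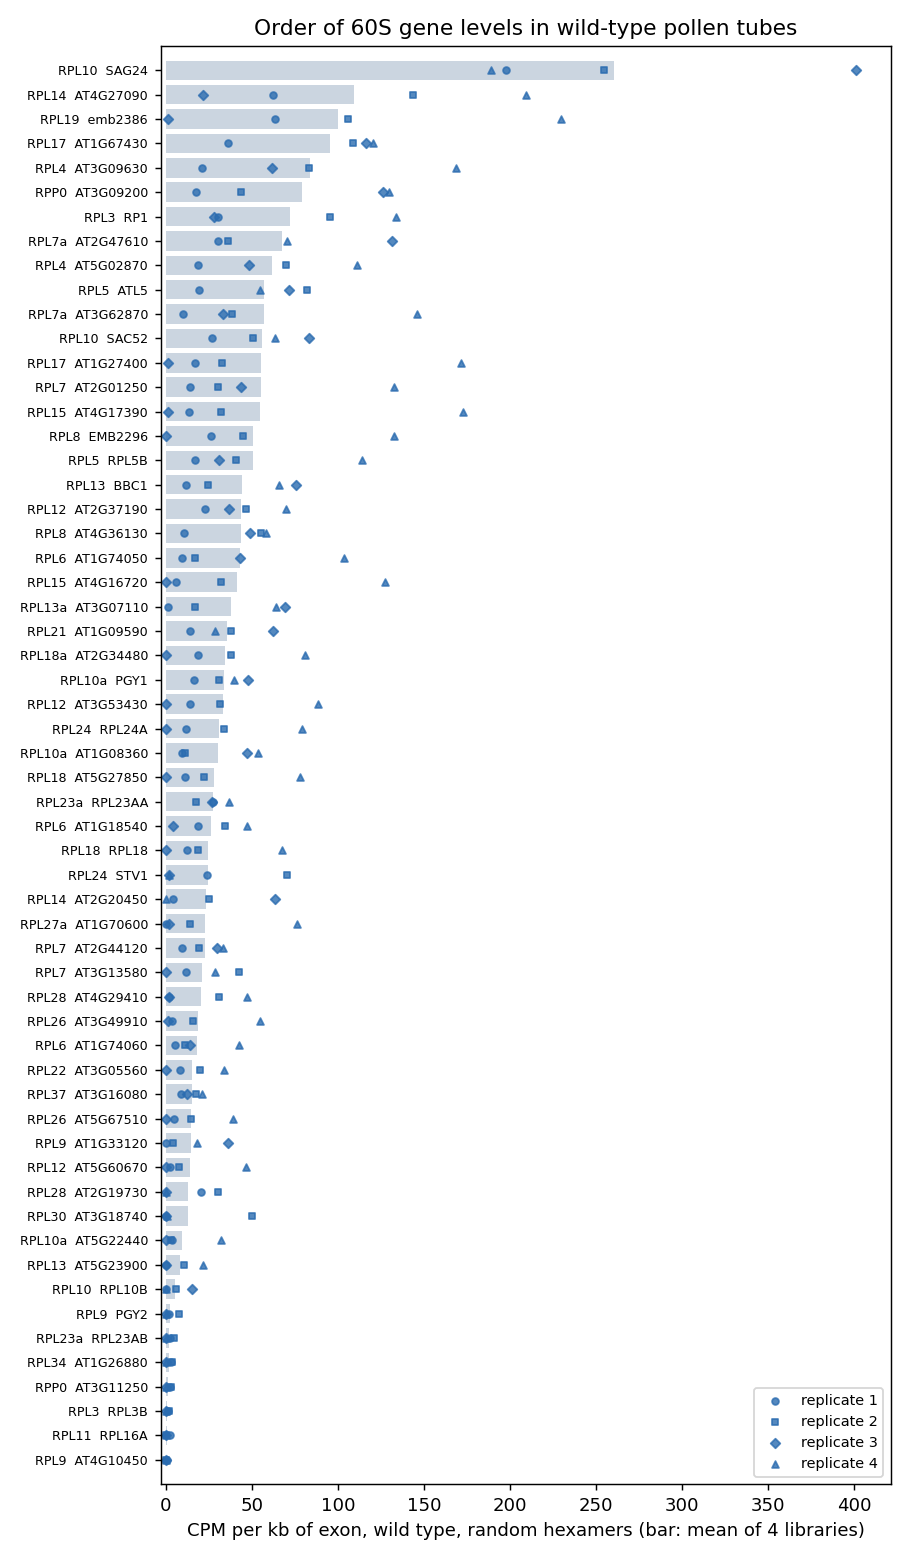
CPM per kilobase of exon (x axis) for each of the 58 genes in the WT random-hexamer libraries, with points for the 4 replicates and bars for their mean. SAG24 leads at 261 CPM per kb, and the points of most other genes spread from near 0 to well over their mean.

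The catalytic centre was represented by 7 genes of the families RPL3, RPL8 and RPL10, whose proteins lie next to the site of peptide bond formation. Their summed level with random hexamers was 1039 ± 465 CPM in paps1-1 and 617 ± 176 in WT (SD, n = 4). RPL10 joins late in the assembly of the subunit and helps to position the tRNA, and SAG24 supplied most of the counts of this family in 7 of the 8 random-hexamer libraries. SAG24 stood at 228, 293, 462 and 217 CPM in WT and at 267, 486, 208 and 416 CPM in paps1-1. These values overlapped, with a fitted log2 fold change (paps1-1 over WT) of 0.09 ± 0.60 (SE), a value whose sign turned with DESeq2 size factors (-0.11). The other 57 genes summed to 916, 2270, 1782 and 4509 CPM in WT. In paps1-1 they summed to 1641, 6960, 6872 and 2891 CPM. Thus the 2 paps1-1 samples with the highest ribosomal shares did not both have high SAG24: replicate 3 had the lowest SAG24 value of the 8. SAG24 made up 47.1% of RPL10 counts there (exact Clopper-Pearson 95% interval, counting error only, 41.5% to 52.8%), while it held from 67.1% to 87.0% in the other 7. Its share of all counts of the 58 genes ran from 2.94% in that library to 20.6% in WT replicate 3.

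**Figure D3:**
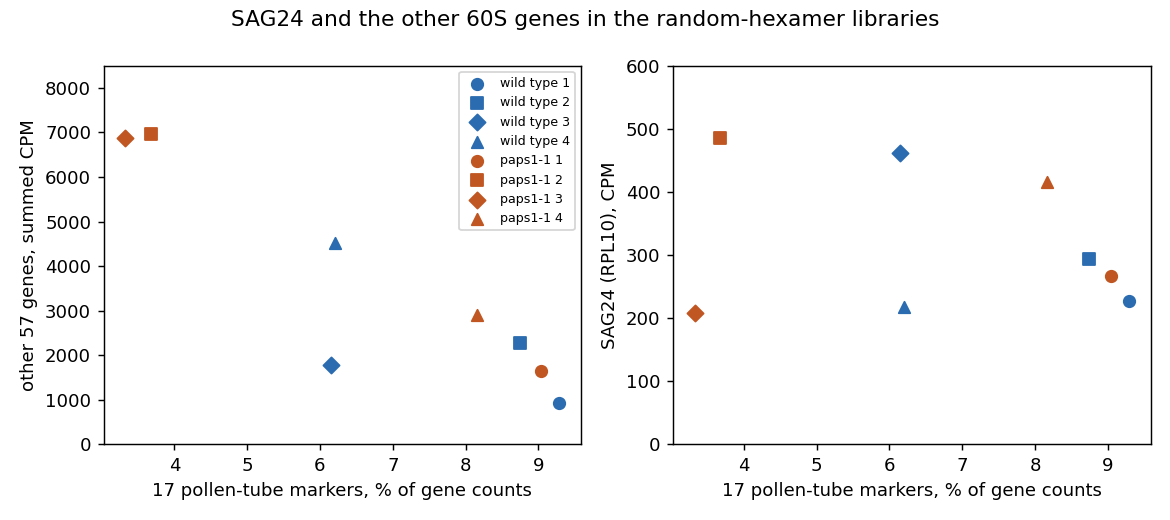
Summed CPM of the other 57 genes (left) and CPM of SAG24 (right) against the percent of gene counts in 17 pollen-tube markers, for the 8 random-hexamer libraries, with 1 point per library. The 2 paps1-1 libraries at the lowest marker shares are the highest on the left, at 6960 and 6872 CPM, and on the right they are the highest and the lowest, at 486 and 208 CPM.

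The other RPL10 copies are SAC52, known from a dominant allele that restores stem growth in the acaulis5 mutant, and RPL10B. SAC52 had 33.8, 64.4, 105 and 80.5 CPM in WT and 42.5, 226, 210 and 108 CPM in paps1-1, again with overlap. RPL10B had 0.345, 6.06, 15.9 and 0 CPM in WT and 4.34, 12.3, 23.9 and 0 CPM in paps1-1. All RPL10 copies overlapped between genotypes with random hexamers. With oligo(dT), SAG24 had 678, 707, 0 and 298 CPM in WT and 436, 663, 131 and 394 CPM in paps1-1, and it was the only RPL10 copy counted in paps1-1 replicate 4. The 250 bases before the annotated starts of SAG24 and SAC52 are shown because SAG24 was the highest of the 58 genes and SAC52 is the next copy of its family. They were read from the RefSeq genome TAIR10.1, 5′ to 3′ on the strand of the gene, with capitals marking the site II element (TGGGCC or TGGGCT on either strand), which is known from plant ribosomal protein promoters and is bound by TCP factors.
SAG24 (chr1:24838840-24839089, plus strand): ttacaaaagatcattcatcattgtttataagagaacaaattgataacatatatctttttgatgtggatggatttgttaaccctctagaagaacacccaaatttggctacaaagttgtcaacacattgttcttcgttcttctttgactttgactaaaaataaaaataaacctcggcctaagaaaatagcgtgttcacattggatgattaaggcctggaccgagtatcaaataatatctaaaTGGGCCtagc
SAC52 (chr1:4887864-4888113, plus strand): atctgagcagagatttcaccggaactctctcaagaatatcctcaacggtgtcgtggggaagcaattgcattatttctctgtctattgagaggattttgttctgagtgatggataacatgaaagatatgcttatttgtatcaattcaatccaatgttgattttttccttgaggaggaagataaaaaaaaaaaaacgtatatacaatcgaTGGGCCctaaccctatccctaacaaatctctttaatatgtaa
Each window holds 1 site II match, and neither holds a telo box (AAACCCTA on either strand). Site II was found in 40 of the 58 windows (69%) and in 5264 of the 27443 windows of all protein-coding genes (19.2%). The telo box, the other element known from these promoters, was found in 11 (19%) against 1231 (4.49%). Both were found in 8 (13.8%) against 374 (1.36%). No match of one motif can lie inside a match of the other. In WT random-hexamer libraries, the 40 genes with a site II match had a median of 33.9 CPM per kb (range 0.611 to 261), and the 18 without one had a median of 22.0 (range 0.223 to 100.1). The ranges overlapped almost entirely.

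RPL3 and RPL8 completed the catalytic group. RP1 (AT1G43170), the main RPL3 gene, had 53.1, 167, 49.3 and 233 CPM in WT and 100, 558, 443 and 189 CPM in paps1-1 with random hexamers (log2 fold change 1.09 ± 0.63 SE). With oligo(dT) it was far lower, at 0, 2.00, 0 and 58.6 CPM in WT and 53.2, 260, 18.1 and 0 CPM in paps1-1. RP1 was the only gene of the 58 to be lower with oligo(dT) in all 8 RNA samples. Its second copy, RPL3B, had 2.07, 2.53, 0 and 0 CPM in WT and 6.04, 6.60, 25.3 and 6.92 CPM in paps1-1 with random hexamers, with no overlap between genotypes. With oligo(dT), RPL3B had no count in WT and 4.83, 19.4, 178 and 0 CPM in paps1-1. Its paps1-1 mean without replicate 3 was 8.08 CPM, under the WT limit of 12.6 CPM (3 counts per library, averaged), so no fold is given. RPL8 is among the most conserved ribosomal proteins. EMB2296, an embryo-defective RPL8 locus, had 30.7, 52.5, 0 and 156 CPM in WT and 40.4, 188, 211 and 92.3 CPM in paps1-1 with random hexamers. AT4G36130 had 13.4, 68.7, 60.5 and 72.1 CPM in WT and 28.0, 87.9, 114 and 54.2 CPM in paps1-1. Both overlapped between genotypes.

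Around the exit tunnel, 9 genes of RPL4, RPL17, RPL19, RPL23a and RPL26 summed to 1022 ± 600 CPM in paps1-1 and 567 ± 408 in WT with random hexamers (SD, n = 4). RPL4 and RPL17 line the tunnel, and RPL23a and RPL26 sit at its mouth, where RPL23a is a docking site for factors that receive new chains. The RPL23a copies differed. RPL23AB had 2.41, 4.29, 0 and 0 CPM in WT and 5.67, 46.5, 19.7 and 33.4 CPM in paps1-1, with no overlap (log2 fold change 3.32 ± 1.61 SE). RPL23AA had 44.1, 28.3, 43.0 and 58.3 CPM in WT and 45.0, 219, 177 and 83.0 CPM in paps1-1. Both were higher on average in paps1-1, and neither passed the test. With oligo(dT), RPL23AB had 0, 97.0, 0 and 40.6 CPM in WT and 57.99, 217, 0 and 3.52 CPM in paps1-1, so its genotypes overlapped there. RPL19, from emb2386, had 70.7, 117, 1.59 and 254 CPM in WT and 67.2, 263, 390 and 102 CPM in paps1-1 with random hexamers. The RPL4 gene AT3G09630 had 34.5, 137, 102 and 277 CPM in WT and 74.0, 248, 328 and 73.2 CPM in paps1-1. Its partner AT5G02870 had 31.4, 116, 79.6 and 183 CPM in WT and 64.8, 189, 210 and 131 CPM in paps1-1. In these 3 genes WT replicate 4 and paps1-1 replicates 2 and 3 were the high samples, as in the summed share. The RPL17 genes AT1G27400 and AT1G67430 and the RPL26 genes AT3G49910 and AT5G67510 overlapped too, within 1.59 to 217 CPM apart from a 0 for AT5G67510 in WT replicate 3.

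RPL5 and RPL11 bring the 5S ribosomal RNA into the subunit. The 3 genes summed to 290 ± 156 CPM in paps1-1 and 157 ± 77.8 in WT with random hexamers (SD, n = 4). ATL5 had 29.0, 123, 107 and 82.0 CPM in WT and 70.6, 167, 176 and 87.7 CPM in paps1-1. RPL5B had 23.8, 57.3, 43.0 and 160 CPM in WT and 46.1, 313, 143 and 127 CPM in paps1-1. Both copies overlapped between genotypes. ATL5 is known for a leaf-polarity phenotype in asymmetric leaves backgrounds. RPL16A, the RPL11 gene on the list, had 2.07 CPM in WT replicate 1 and no counts in the other WT random-hexamer libraries. In paps1-1 it had 5.85, 10.2, 0 and 11.0 CPM.

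The stalks comprised 8 genes of RPP0, RPL12 and RPL10a and summed to 488 ± 287 CPM in paps1-1 and 299 ± 194 in WT with random hexamers (SD, n = 4). RPP0 is the base of the stalk that recruits elongation factors, RPL12 binds beside it, and RPL10a forms the mobile stalk on the exit side. The main RPP0 gene, AT3G09200, had 25.9, 63.6, 185 and 189 CPM in WT and 69.9, 269, 321 and 107 CPM in paps1-1 with random hexamers. With oligo(dT) it had no counts in WT replicates 1, 2 and 3 and 33.8 CPM in replicate 4, against 20.02, 105, 382 and 12.3 CPM in paps1-1. The random-hexamer values overlapped, and with oligo(dT) the paps1-1 values bracketed the single WT value. The fitted log2 fold change with oligo(dT) was 3.62 ± 2.48 (SE) and ranged from 2.68 to 10.37 with each replicate left out. Its second copy, AT3G11250, had 3.10, 3.79, 0 and 0 CPM in WT and 6.42, 27.0, 7.03 and 14.4 CPM in paps1-1 with random hexamers, with no overlap. The RPL10a gene AT1G08360 had no count in any WT oligo(dT) library, while its paps1-1 values were 33.8, 146, 192 and 7.03 CPM, a mean at least 7.53-fold higher than the WT limit, and at least 4.95-fold higher without paps1-1 replicate 3. That limit is set mostly by WT oligo(dT) replicate 3, whose floor of 42.9 CPM lay above the paps1-1 values of replicates 1 and 4. With random hexamers AT1G08360 had 10.3, 12.4, 52.5 and 59.3 CPM in WT and 14.2, 82.2, 70.3 and 31.1 CPM in paps1-1, which overlapped. Its partner PGY1, a leaf-polarity gene, had 19.0, 34.8, 54.1 and 45.0 CPM in WT and 35.3, 131, 83.0 and 68.6 CPM in paps1-1. The third copy, AT5G22440, had 4.14, 4.04, 0 and 38.5 CPM in WT and 6.61, 29.7, 33.8 and 6.34 CPM in paps1-1. The 3 copies shared the overlap of genotypes and differed in oligo(dT), where PGY1 had 0, 133, 0 and 97.0 CPM in WT against no counts for AT1G08360. Among the RPL12 genes, AT2G37190 had 21.7, 44.2, 35.0 and 66.2 CPM in WT and 26.1, 95.1, 91.4 and 28.3 CPM in paps1-1 with random hexamers. AT3G53430 had 16.9, 38.1, 0 and 107 CPM in WT and 18.9, 89.4, 95.6 and 35.8 CPM in paps1-1. AT5G60670 had 2.76, 8.33, 0 and 51.4 CPM in WT and 10.6, 18.0, 23.9 and 6.92 CPM in paps1-1. Genotypes overlapped for all 3, and AT5G60670 was highest in a WT library.

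Subunit bridges were represented by the RPL24 genes STV1 and RPL24A and by AT3G18740, which carries the symbol RLK902 in the annotation used but is annotated there as a protein of the L7Ae and L30e family, as RPL30 is. STV1 (SHORT VALVE1) is known for its part in reinitiation at upstream reading frames and in patterning of the gynoecium. It had 20.7, 60.9, 1.59 and 1.48 CPM in WT and 64.0, 242, 167 and 92.9 CPM in paps1-1 with random hexamers. The groups did not overlap, though the lowest paps1-1 value lay close to the highest WT value. Its log2 fold change was 2.23 ± 0.91 (SE), with an unadjusted p of 0.0204 and an adjusted p of 1.00 (edgeR). RPL24A had 11.4, 32.6, 0 and 76.6 CPM in WT and 25.5, 67.2, 84.4 and 38.1 CPM in paps1-1, which overlapped. The 2 lowest STV1 values, of 1 and 3 counts, came from WT replicates 3 and 4, where 22 and 10 of the 58 genes were at 0 with random hexamers. AT3G18740 had 0, 31.1, 0 and 0.494 CPM in WT and 7.37, 21.9, 26.7 and 10.4 CPM in paps1-1 with random hexamers. With oligo(dT) it was far higher in most samples, at 0, 105, 0 and 333 CPM in WT and 161, 406, 351 and 114 CPM in paps1-1. STV1 with oligo(dT) had 0.339, 0, 0 and 78.9 CPM in WT and 3.11, 248, 233 and 0 CPM in paps1-1, with overlap. With each replicate left out in turn, the random-hexamer STV1 log2 fold change ranged from 1.81 to 3.74.

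The windows before the RPL24 starts are printed because the genotypes overlapped for RPL24A and not for STV1, with the same genome, capitals and orientation as above.
STV1 (chr3:19662026-19662275, minus strand): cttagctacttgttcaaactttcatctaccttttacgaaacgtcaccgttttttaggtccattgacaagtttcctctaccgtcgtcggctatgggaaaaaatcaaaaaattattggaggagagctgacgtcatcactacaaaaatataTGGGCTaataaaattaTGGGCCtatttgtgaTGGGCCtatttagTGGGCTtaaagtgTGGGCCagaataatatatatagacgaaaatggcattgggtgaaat
RPL24A (chr2:15352014-15352263, minus strand): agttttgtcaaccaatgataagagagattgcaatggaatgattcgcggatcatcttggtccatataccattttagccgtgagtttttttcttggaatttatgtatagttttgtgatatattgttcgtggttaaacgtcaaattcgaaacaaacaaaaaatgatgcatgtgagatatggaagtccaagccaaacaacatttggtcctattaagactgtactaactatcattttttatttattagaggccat
STV1 holds 5 site II matches, the most of the 58 genes, the nearest 45 bases before the start. RPL24A holds none. The RefSeq note names STV1 as regulated by TCP20, a factor of the family that binds site II. Matches describe letters in these windows and nothing about binding in these cells.

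The remaining 28 genes summed to 1884 ± 1180 CPM in paps1-1 and 971 ± 684 in WT with random hexamers (SD, n = 4). AT1G26880, of RPL34, had 5.86, 6.57, 0 and 0 CPM in WT and 20.6, 48.9, 54.8 and 27.1 CPM in paps1-1, with no overlap (log2 fold change 2.94 ± 1.41 SE). AT3G16080, the RPL37 gene, a small zinc-binding protein, had 8.96, 18.2, 12.7 and 21.2 CPM in WT and 6.04, 57.3, 61.9 and 53.1 CPM in paps1-1 with random hexamers. With oligo(dT) it had no counts in WT and 48.0, 229, 58.5 and 213 CPM in paps1-1, at least 10.9-fold above the WT limit. That limit is set mostly by replicate 3, whose floor was 42.9 CPM. Its genotypes thus overlapped with random hexamers and not with oligo(dT). The RPL6 gene AT1G18540 had 29.0, 53.3, 6.37 and 73.1 CPM in WT and 46.1, 175, 136 and 108 CPM in paps1-1 with random hexamers. With oligo(dT) it had 291, 431, 0 and 301 CPM in WT and 186, 674, 531 and 236 CPM in paps1-1. It was thus higher with oligo(dT) in every RNA sample but WT replicate 3, and its genotypes overlapped by both primings. RPL18, of the family of that name, had 15.9, 23.7, 0 and 86.5 CPM in WT and 34.9, 126, 169 and 65.7 CPM in paps1-1 with random hexamers. BBC1 (RPL13) had 17.9, 38.1, 116 and 101 CPM in WT and 31.9, 125, 211 and 19.0 CPM in paps1-1. Both overlapped between genotypes, as they did with oligo(dT).

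Across the list, no gene passed an adjusted p of 0.05 in either genotype comparison, by edgeR's quasi-likelihood test. With random hexamers, 56 of the 58 genes passed the filter on low counts and 9 of 12595 genes tested passed the threshold in the whole table (0.0715%). Of the 56, 52 had a positive log2 fold change, where 65.7% of all genes tested did. Their median was 0.66 (range -0.64 to 3.32) against 0.38 over all genes tested. With each replicate left out, the median of the 56 ranged from 0.56 to 1.18. Without WT replicate 1 it was 0.56 against 0.57 over all genes, so the excess was not seen there, and without WT replicate 4 it was 1.18 against 0.46. Without the filter on low counts the medians were 0.69 and 0.62 over all genes, and with replicate number as a block 1.03 and 0.89. With DESeq2 size factors 48 of 56 were positive, where 7365 of 12595 genes tested were. With library totals 53 of 56 were, where 9223 of 12595 genes tested were. The 4 negative values belonged to AT1G33120, AT4G17390, AT3G07110 and AT5G60670. Unadjusted p under 0.05 held for 3 of the 56, and for 2.33% of all genes tested. The groups did not overlap for 5 of 56 (RPL3B, RPL23AB, STV1, AT1G26880 and AT3G11250), all higher in paps1-1, where 4.6% of all genes tested were so placed, and for 0 of 56 in the other direction, where 1.52% were. RPL3B and AT3G11250 passed the filter on low counts only through their paps1-1 libraries, which fixed their non-overlap in advance. RPL23AB, STV1 and AT1G26880 also needed paps1-1 libraries to pass it, since too few of their WT libraries reached its level. None of the 5 was therefore placed independently of the filter. AT4G10450, untested, also did not overlap, but by a single count. Its lowest paps1-1 value was 1.41 CPM, from 1 count in replicate 3. Its highest WT value was 1.38 CPM, from 4 counts in replicate 1. The DESeq2 Wald test called 0 of the 56, and 0.278% of all genes tested. With the 2 paps1-1 samples of highest ribosomal share left out, 38 of 58 were positive, where 8350 of 13796 genes tested were. The median was then 0.31 against 0.24 over all genes.

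**Figure D4:**
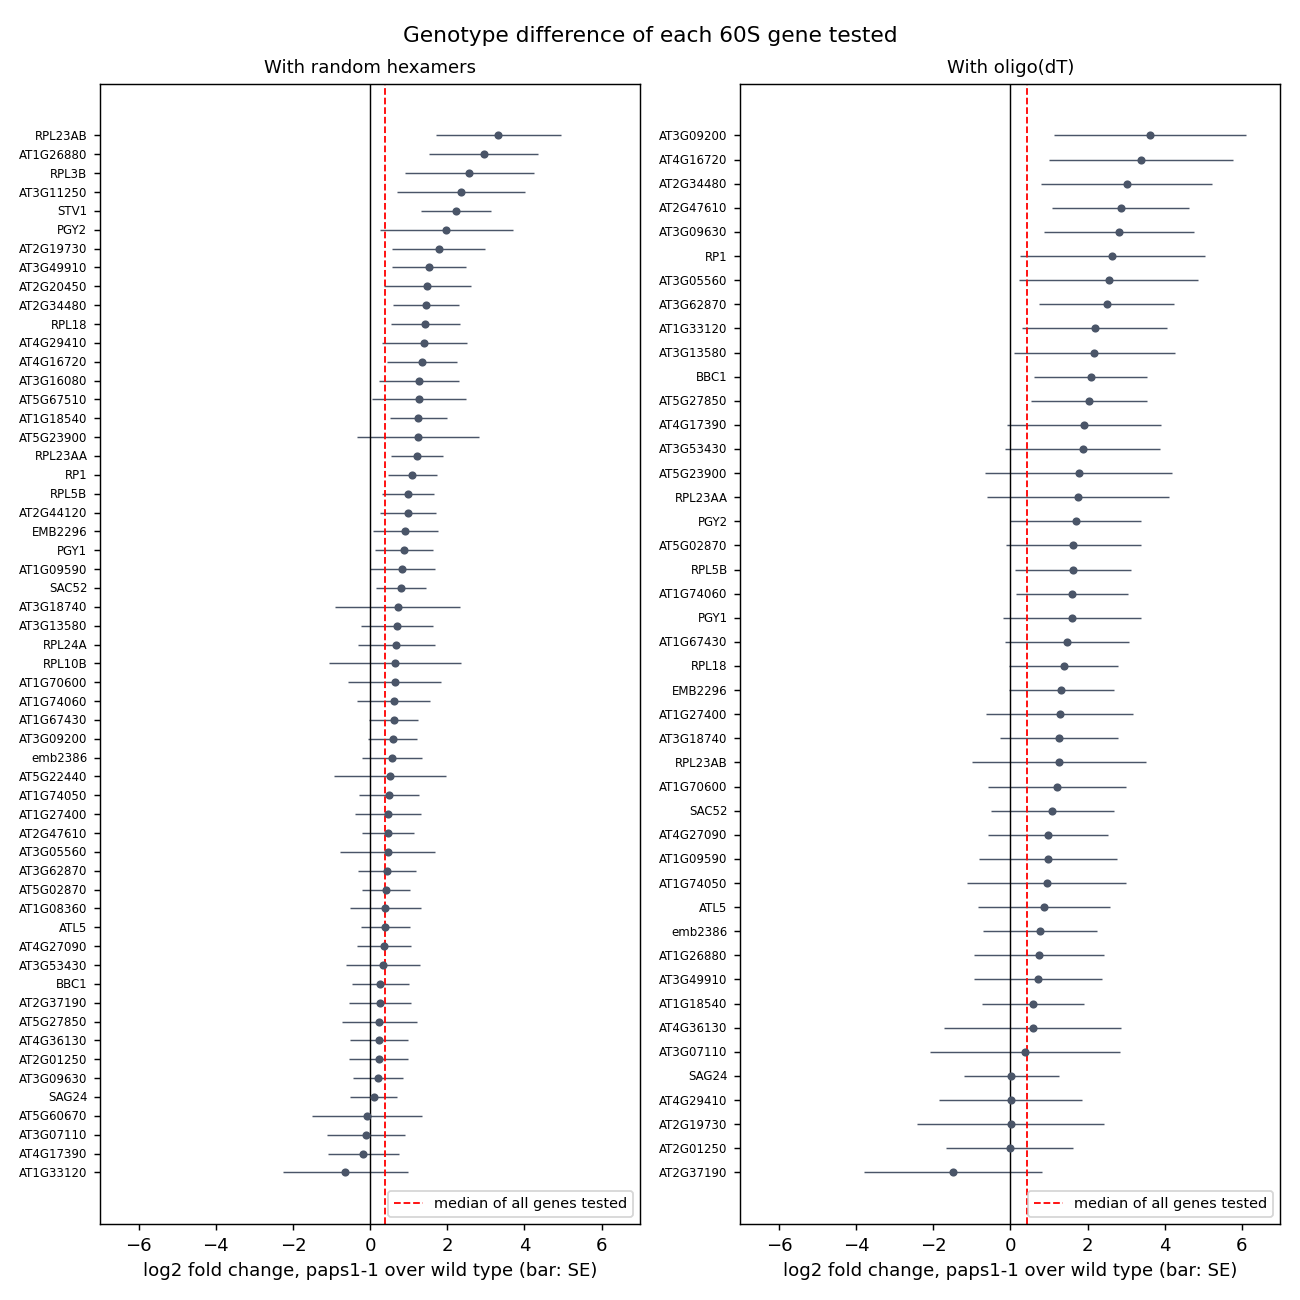
Fitted log2 fold change, paps1-1 over WT, with its SE (x axis) for each large-subunit gene tested with random hexamers (left) and with oligo(dT) (right), where AT3G16080 is left out because all WT values are 0. The dashed line is the median of all genes tested, 0.38 on the left and 0.43 on the right, and most SE bars are wider than the distance from it.

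With oligo(dT), 45 of the 58 genes were tested, and the 13 left out included STV1, RPL24A and RPL3B. In this comparison 1 of 5101 genes passed the threshold (0.0196%) and 0 of the 45. Values were positive for 43 of the 45, where 63.5% of all genes tested were. Their median was 1.46 against 0.43 over all genes tested. Without the filter on low counts the medians were 1.46 and 1.47, and without WT replicate 1 they were 1.18 and 0.64. An unadjusted p under 0.05 held for 1 of the 45, and for 1.69% of all genes tested. AT2G47610 (RPL7a) had the smallest p after AT3G16080, with 26.5, 0, 0 and 95.8 CPM in WT and 39.0, 310, 377 and 287 CPM in paps1-1, where the groups overlapped (log2 fold change 2.85 ± 1.78 SE). Groups did not overlap for 1 of 45, AT3G16080, against 2.41% of all genes tested, and for 0 in the other direction, against 0.804%. AT3G16080 passed the filter only through its paps1-1 libraries, which fixed its non-overlap in advance. Untested AT1G08360 also did not overlap in counts. Its 33.8 and 7.03 CPM in paps1-1 replicates 1 and 4 lay under the 42.9 CPM that a 0 allows in WT replicate 3. The DESeq2 Wald test called 1 of the 45, AT3G16080, a gene with no WT count, and 0.667% of all genes tested. Leaving out the 2 paps1-1 samples gave 32 of 49 positive, where 4461 of 7844 genes tested were, with a median of 0.64 against 0.28. The 63 other annotated large-subunit genes and the 81 small-subunit genes are given for comparison. With random hexamers 45 of 50 and 61 of 67 tested were positive (medians 1.00 and 0.75), none past the threshold. The 15 ribosome biogenesis genes had 11 of 15 positive with a median of 0.58, none past the threshold. With oligo(dT), 41 of 44 other large-subunit and 50 of 52 small-subunit genes tested were positive (medians 1.76 and 1.25). So were 7 of 8 biogenesis and 15 of 15 photosynthesis genes tested (medians 1.17 and 1.17). None of these passed the threshold.

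**Figure D5:**
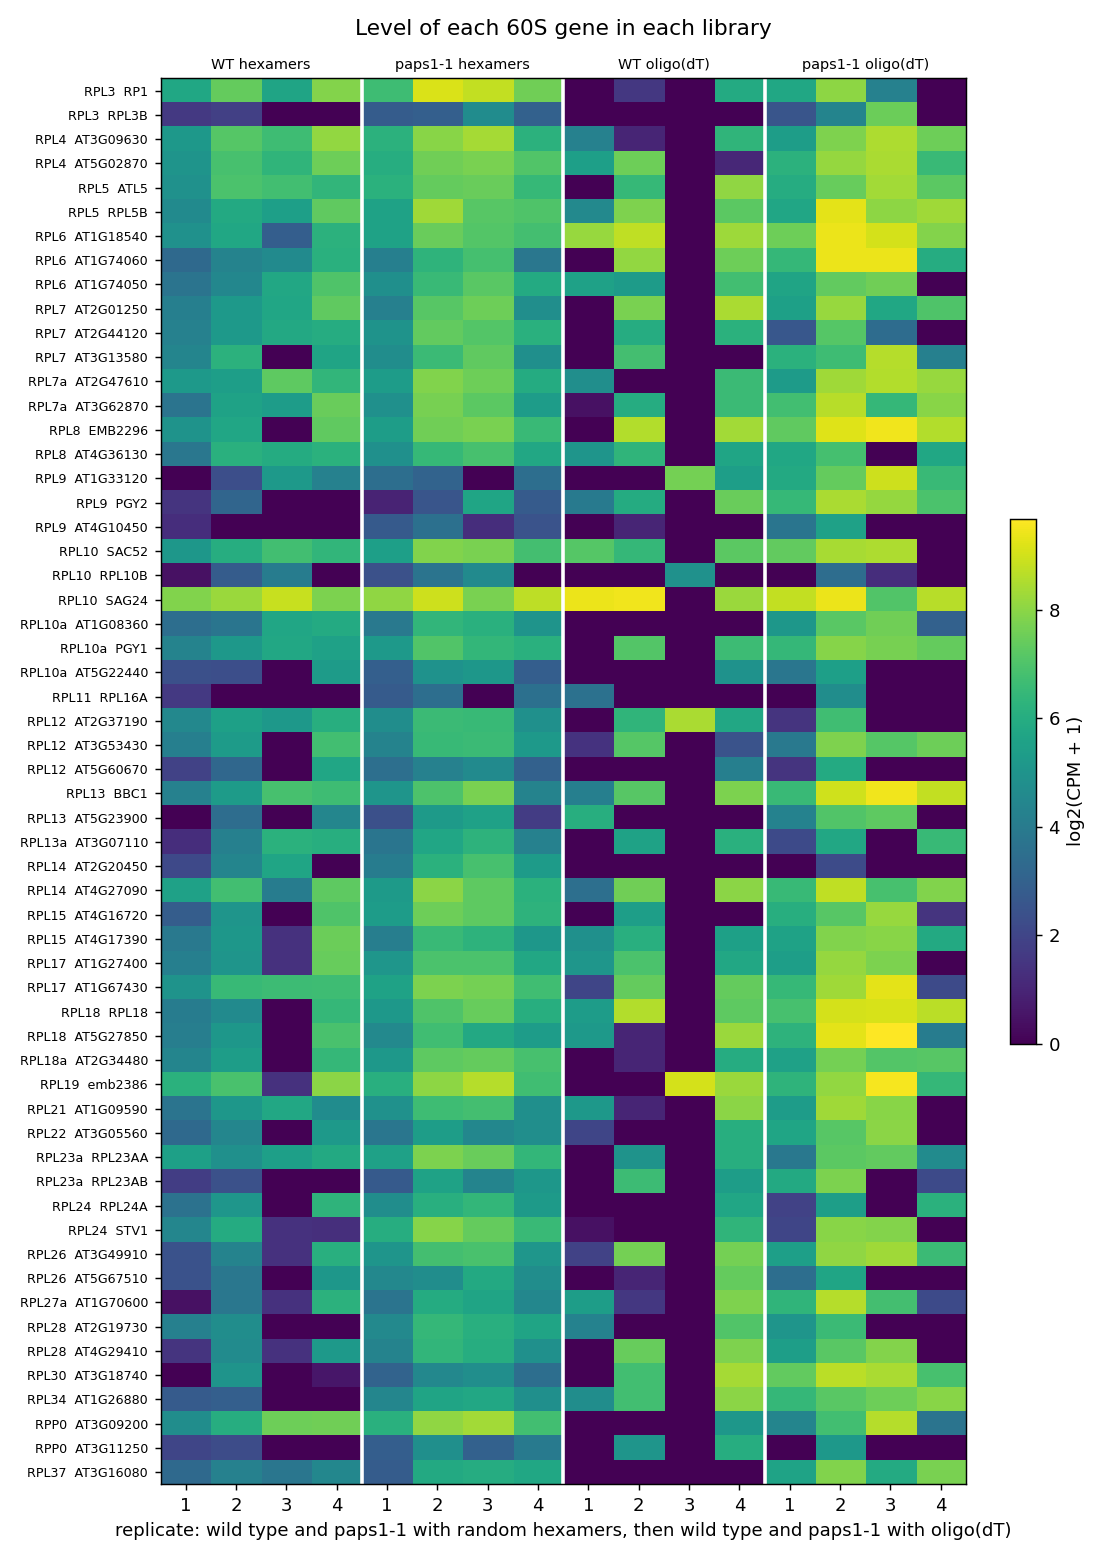
Level of each of the 58 genes (rows, ordered by family) in the 16 libraries (columns, replicates 1 to 4 of WT and paps1-1 with random hexamers, then of WT and paps1-1 with oligo(dT)), as log2(CPM + 1). WT oligo(dT) replicate 3 is dark for all but 4 genes, and SAG24 is bright in 15 of 16 libraries.

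Priming made a second axis of comparison within the same RNA. The share of reads from the 58 genes was higher with oligo(dT) than with random hexamers in 7 of 8 RNA samples, by 1.80, 1.89, 1.89 and 1.63 times in paps1-1 replicates 1 to 4. In WT replicates the ratio was 1.47, 2.05, 0.490 and 1.44. The sample below 1 was WT replicate 3, whose oligo(dT) library held 77 counts from these genes. A higher summed share did not in every sample mean that most of the 58 genes were higher. In paps1-1 replicates 1 to 4, CPM was higher with oligo(dT) for 39, 49, 35 and 24 of the 58 genes and lower for 19, 9, 22 and 33. In WT it was higher for 17, 33, 4 and 32 and lower for 39, 24, 32 and 21. Of all genes tested, 39.61%, 43.04%, 25.45% and 24.03% were higher with oligo(dT) in paps1-1 replicates 1 to 4. In WT replicates 1 to 4, 23.63%, 25.68%, 9.29% and 32.49% were. The 58 genes were thus more often higher than all genes tested in every RNA sample but WT replicate 3. In WT replicate 1, SAG24 alone held 40.3% of the oligo(dT) counts of these genes, and the other 57 summed to 1004 CPM against 916 with random hexamers. In paps1-1 replicate 2, the pair with the most counts from these genes, all 58 genes were counted by both primings, and the oligo(dT) over random-hexamer ratio of CPM had a median of 1.84, against 1.05 over 13159 genes with counts in both. It exceeded 1 for 49 of the 58. The ratio ran from 0.0506 for AT2G20450 to 72.0 for PGY2. AT3G09200 (0.389) and RP1 (0.466) were among the 9 below 1.

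The lowest and the highest of these ratios belonged to copies of RPL14 and RPL9, and no difference between copies was tested. The RPL14 copy AT2G20450 had 3.45, 20.2, 50.9 and 0 CPM in WT and 15.9, 70.5, 115 and 38.6 CPM in paps1-1 with random hexamers, but with oligo(dT) it had 3.57 CPM in paps1-1 replicate 2 and no counts in the other 7 libraries. AT4G27090 was seen by both primings, with 90.1, 424, 116 and 227 CPM in paps1-1 with oligo(dT) and 38.0, 253, 153 and 71.5 CPM with random hexamers. The fitted log2 difference, oligo(dT) over random hexamers, was -7.84 ± 3.23 (SE) for AT2G20450 in paps1-1, with an adjusted p of 0.394 (edgeR). Of the RPL9 copies, PGY2 had 0.944, 4.80, 50.6 and 5.77 CPM with random hexamers and 89.1, 346, 279 and 120 CPM with oligo(dT) in paps1-1. All 4 pairs were higher with oligo(dT), with a log2 difference of 4.30 ± 2.31 (SE) and an adjusted p of 0.477 (edgeR). Its neighbour AT1G33120 had 10.2, 7.50, 0 and 10.4 CPM with random hexamers and 56.96, 167, 486 and 93.2 CPM with oligo(dT) in paps1-1, also higher in all 4 pairs (log2 difference 3.95 ± 2.40 SE). Of the 50-base windows of PGY2, 57.1% recur elsewhere in the TAIR10.1 genome, and 53.4% of those of AT1G33120, so reads of this pair are uncertain where the aligner could not place them. Among the 58 genes, 41 had no such window.

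In WT, AT3G09200 and RP1 had the smallest adjusted p of the 58. Their log2 differences were -7.46 ± 2.31 (SE) and -6.65 ± 2.09, with adjusted p of 0.0746 and 0.0801 (edgeR). Over the alternatives the adjusted p of AT3G09200 ranged from 2.5e-05 to 0.614, and that of RP1 from 0.00036 to 0.614. RP1 in paps1-1 had a log2 difference of -3.85 ± 1.99. No gene of the 58 passed the threshold in WT, where 163 of 14190 genes did (1.15%), in paps1-1, where 40 did (0.282%), or in the test of the difference between genotypes, where 0 did (0.0%). In that test the unadjusted p was under 0.05 for 2 of the 58, and for 1.63% of all genes. For priming, the unadjusted p was under 0.05 for 6 of the 58 in WT, where it was for 20.2% of all genes, and for 1 in paps1-1, where it was for 11.1%. The DESeq2 Wald test called 11 of the 58 in WT (10 lower, 1 higher with oligo(dT)), where it called 19.2% of all genes. It called 6 in paps1-1, where it called 11.5% of all genes, and 0 in the difference, where it called 0.254%. CPM was higher with oligo(dT) in at least 7 of 8 RNA samples for 4 of 58 (AT1G18540, AT1G26880, PGY2 and RPL18), where 2.67% of all genes tested were so placed. It was lower in at least 7 for 3 of 58 (RP1, AT2G20450 and AT3G09200), where 18.7% were.

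In WT, where 4 genes had no oligo(dT) count, the random-hexamer mean was at least 2.68-fold higher than the oligo(dT) limit for AT1G08360, 1.48-fold for AT2G20450 and 1.22-fold for AT3G16080. RPL3B lay under that limit with random hexamers too.

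The fitted priming differences had medians of -2.26 in WT and -0.34 in paps1-1 for the 58 genes, against -3.92 and -2.53 over all genes tested. The paps1-1 median turned to 0.27 with library totals in place of TMM scaling, where the median of all genes moved to -2.03. Relative to the median of all genes, the 58 genes stood 1.66 higher in WT and 2.19 higher in paps1-1. The gap was 2.64 and 2.77 for the other large-subunit genes and 2.88 and 2.39 for the small-subunit genes. It was 1.02 and 2.60 for the photosynthesis genes and -0.49 and 0.95 for the ribosome biogenesis genes. The size of the gap of the 58 genes varied with the setting. It was 0.83 and 0.97 with no replicate block, and in WT 0.54 with no filter on low counts, 0.85 with the DESeq2 Wald test and 2.85 without WT replicate 3. For the genotype difference in the oligo(dT) to random-hexamer ratio, 43 of 58 were positive, where 62.9% of all genes tested were. The 58 genes had a median of 1.65, against 0.97 over all genes. The other large-subunit genes had 34 of 54 positive with a median of 0.88, so they did not share this excess over all genes. Small-subunit genes had 52 of 72 positive (median 1.496), photosynthesis genes 16 of 21 (2.62) and ribosome biogenesis genes 10 of 15 (1.46). The median of the 58 ranged from 0.67 to 2.19 with each replicate left out. Without WT replicate 1 it was 0.67 against 0.59, and with no replicate block 0.71 against 0.64. AT3G09200 was at 5.42 ± 2.77 (SE) there, with an adjusted p of 1 (edgeR).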

How the data were processed

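Read counts per gene were deposited by the authors for each of 16 libraries, unnormalised, with STAR as the aligner and TAIR10 as the genome per the submitters' processing notes. Versions, read length and strand settings were not stated in these sources. The deposited column on the strand of the gene was used. The 4 entries that name no gene held from 55.1% to 99.6% of reads and entered neither library sizes nor tests. STAR counts only reads placed once in the genome, which lowers counts of near-identical copies. Libraries in a group differed by more than sampling noise (chi-square per degree of freedom at least 20.5), so each counted once. Intervals and limits cover counting error only.

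Tests used edgeR 4.0.16 in R 4.3.3 (TMM, filterByExpr with minimum count 10 and minimum total 15, quasi-likelihood F test, Benjamini-Hochberg over all genes tested, threshold 0.05), and were checked on simulated data. The simulated counts had a set spread and no RNA-sample effect. The check therefore does not show how the tests perform at the spread of these libraries. Genotypes were compared over the 8 libraries of each priming. Priming and its difference between genotypes came from 1 fit of all 16 libraries, blocked by RNA sample, since the labels' protocol states that each RNA was split. Same-RNA libraries correlated at 0.0176 to 0.324 in their deviations from the group means. Each SE was computed as log2 fold change over root F. DESeq2 1.42.0, another scaling, no filter, counts without strand, and leaving out replicates were alternatives. A lower bound of a fold is set against 3 counts in each library, averaged over the group.

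Names, exon lengths and promoter windows came from RefSeq TAIR10.1, which matched 32835 of 33323 genes. All 58 matched. Named genes were those of smallest p in each comparison, the 10 of highest level, all copies of 10 families of known role, genes at 0 in a group and genes that the filter removed. Other genes that this takes in are given by counts and ranges. The genes and lists were chosen with earlier results of these data known. A list of sperm markers was not used because 1 of its loci is annotated as another gene, and 1 locus left the ribosome biogenesis list for the same reason.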

Additional observations from a re-analysis of the deposited data

Results flagged for a closer look

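In 6 of 48 groups of 4 libraries examined, 1 library lay apart from the other 3 by Dixon's 95% criterion. Its rate of about 1 in 20 by chance assumes normally distributed values, so the 6 groups are not read against it. With 3 values at 0, any count in the fourth library meets the criterion, as for AT3G09200 and AT2G20450. Among random-hexamer libraries, PGY2 stood at 50.6 CPM in paps1-1 replicate 3, against 0.944 to 5.77 CPM in the other paps1-1 libraries. Its near-identical neighbour AT1G33120 was at 0 in that library. AT3G16080 stood at 6.04 CPM in paps1-1 replicate 1, below 53.1 to 61.9 CPM in the other paps1-1 random-hexamer libraries. In the WT oligo(dT) libraries, replicate 4 was the high one for 3 genes. RP1 had 58.6 CPM there and at most 2.00 CPM elsewhere. AT3G09200 had 33.8 CPM and no counts elsewhere. STV1 had 78.9 CPM and at most 0.339 CPM elsewhere. AT2G20450 had 3.57 CPM in paps1-1 oligo(dT) replicate 2, from 16 counts, and none in the other 3.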

How the results depend on the processing

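Of the 13 fitted differences of single genes followed through the alternatives, only that of SAG24 between genotypes with random hexamers changed sign, from 0.09 to -0.11 with DESeq2 size factors and with the DESeq2 Wald test, and with each replicate left out it ranged from -0.13 to 0.48 (-0.11 without paps1-1 replicate 4). The number of the 58 genes past the threshold moved in 2 ways. The DESeq2 Wald test called 1 with oligo(dT) between genotypes, 11 for priming in WT and 6 for priming in paps1-1 (0.667%, 19.2% and 11.5% of all genes tested), where edgeR called 0, and the cause was not tested. With each replicate left out in turn, the count for priming in WT ranged from 0 to 1: RP1 without WT replicate 3 and AT3G09200 without paps1-1 replicate 4. The median priming difference in paps1-1 was not stable in sign, at -0.34 as reported, 0.27 with library totals (an alternative added after seeing the data), 0.30 with no replicate block and up to 0.22 with a replicate left out. DESeq2 size factors gave medians of 0.46 and 1.32 for the genotype comparisons. Library totals gave 0.92 and 1.65, and moved the median of all genes from 0.38 to 0.65 and from 0.43 to 0.53. Genotypes were fitted without pairing by replicate number. Same-numbered libraries of the genotypes correlated at -0.0712 to 0.302 with random hexamers and -0.0716 to 0.225 with oligo(dT). Libraries of the same RNA correlated at 0.0176 to 0.324, a similar range, so these values cannot exclude such a pairing. With the replicate block, calls over all genes went from 9 to 15 and from 1 to 4, and calls among the 58 genes stayed at 0. Their medians were 1.03 and 2.99, against 0.89 and 1.02 over all genes. With no replicate block, the median priming difference was -0.63 in WT and 0.71 in the genotype difference of ratios (0.64 over all genes). Depth limits what a 0 shows: 70006 gene counts in WT replicate 3 allow up to 42.9 CPM behind a count of 0.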
